A study of Mus musculus with 6 samples.

Results

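Cholesterol export and liver X receptor (LXR) genes were read from bulk RNA sequencing of cultured mouse brain astrocytes. The group has 10 genes, taken by symbol from the count table: the lipid carrier gene Apoe, the sterol exporter genes Abca1, Abcg1 and Abcg4, the LXR genes Nr1h2 and Nr1h3, and the LXR targets Srebf1, Mylip, Lpcat3 and Pltp. All 10 were found among the 24318 symbols of the table, and all 10 were among the 14131 genes left after a filter on low counts. The study sequenced poly-A RNA of 3 libraries from cells without ADGRB1 (KO) and 3 from wild-type cells (WT), and asked which genes differ when this adhesion G protein-coupled receptor is lost. The labels give no strain, sex or age and no deleted region, and they do not name the culture or animal behind each library. The p-values therefore reflect variation among these 6 libraries only, part of which may be technical.

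Astrocytes supply much of the cholesterol that neurons and other glia use. They load it onto apolipoprotein E particles through ATP-binding cassette exporters, and cells take these particles up through receptors of the LDL receptor family. The LXRs are nuclear receptors that bind oxysterols and desmosterol, pair with retinoid X receptors, and switch on genes for sterol export and fatty acid synthesis when sterol is plentiful.

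The libraries held 19251608 to 20334440 counts in KO and 17460086 to 18897340 in WT. Levels are CPM (counts scaled to a common library size by TMM), and fold changes are KO over WT. Adgrb1 stood at 158, 140 and 117 CPM in the KO libraries, against 299, 363 and 317 CPM in the WT libraries. Each KO library was below each WT library, as the labels have it, at 0.423 of the WT level (log2 fold change -1.24 ± 0.16, SE, edgeR adjusted p = 0.0684). The deleted part is unknown, so the source of the remaining KO reads cannot be placed and the gene total checks the labels by its direction only. The 10 astrocyte markers were all detected, with a summed level of 36133 to 43564 CPM in KO and 32999 to 37842 CPM in WT. Other glia were present as well. The 12 markers of mature oligodendrocytes summed to 11279 to 15165 CPM in KO and 7646 to 14855 CPM in WT. Of this, Mbp alone averaged 10710 CPM in KO and 7442 CPM in WT, so the sum mainly follows Mbp. Most of the 12 went the other way. The fold change was below 0 for 10, and 9 had KO below WT in all libraries, as had 5.87% of all genes tested. The 14 markers of microglia and macrophages summed to 1302 to 1616 CPM in KO and 1523 to 2171 CPM in WT. The 7 markers of oligodendrocyte precursors summed to 1377 to 1838 CPM in KO and 2236 to 2748 CPM in WT, without overlap. Markers of vascular cells and fibroblasts summed to 161 to 187 CPM in KO and 119 to 141 CPM in WT, also without overlap. Of these, Cldn5 ran from 1.15 to 64.4 CPM in KO and from 0.711 to 6.08 CPM in WT. Markers of neurons summed to 367 to 523 CPM in KO and 432 to 461 CPM in WT, and those of choroid plexus and ependyma to 48.3 to 52.0 CPM in KO and 28.4 to 94.9 CPM in WT. None of the markers was at 0 in all libraries. Levels relative to the other libraries correlated across genes with GC content (Spearman's rho) at 0.388, 0.355 and -0.394 in KO and -0.16, 0.0564 and -0.334 in WT. The libraries above 0, KO replicates 1 and 2 and WT replicate 2, are called GC-high below, although WT replicate 2 lay near 0.

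Per length, Apoe stood far above the other genes of the group. Levels between genes are given here as CPM per kb of exonic length. Apoe had 10582 ± 1445 CPM per kb in KO and 7068 ± 971 CPM per kb in WT (SD, n = 3 each), and it held the highest count of any gene in each of the 6 libraries. By the median of the 6 libraries the order was Apoe, Srebf1, Abca1, Lpcat3, Nr1h2, Pltp, Abcg1, Abcg4, Mylip and Nr1h3. The ranges of the 6 libraries overlapped between the neighbours Abca1 and Lpcat3, Lpcat3 and Nr1h2, Abcg1 and Abcg4, Abcg4 and Mylip, and Mylip and Nr1h3. The steps below Apoe, Srebf1, Nr1h2 and Pltp had no such overlap. Srebf1, the second in order, had a median of 91.2 CPM per kb against 8416 CPM per kb for Apoe.

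**Figure D1:**
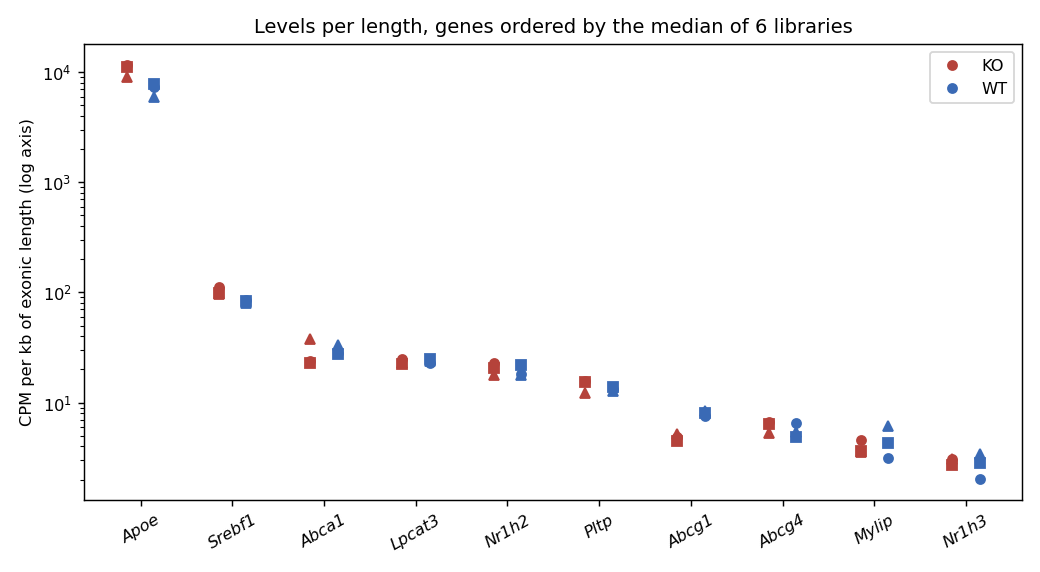
Level of each gene in each library in CPM per kb of exonic length on a log axis, KO in red and WT in blue, with circles, squares and triangles for replicates 1, 2 and 3. Apoe lies about 2 orders of magnitude above Srebf1, and Nr1h3 has the lowest median, at 2.96 CPM per kb.

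None of the 10 genes passed the threshold between KO and WT. That threshold was a Benjamini-Hochberg adjusted p of 0.05 in edgeR's quasi-likelihood test, which called 0 of the 14131 genes (0%). At an unadjusted p under 0.05 there were 3 of the 10 genes, where 871 of all genes tested (6.16%) met that rule. Apoe and Srebf1 had the higher values in KO, as had 330 of all genes under this rule (2.34%), and Abcg1 had the lower values in KO, as had 541 (3.83%). DESeq2 called 1 of the 10, Abcg1, and 76 of all genes tested (0.538%), and limma voom called 0 of the 10 and 4 of all genes (0.0283%). The same 3 genes were the ones whose KO and WT libraries did not overlap, as was the case for 1576 of all genes tested (11.2%), 746 with KO above WT (5.28%) and 830 with KO below WT (5.87%). Of the 10 fold changes, 6 were above 0 and 4 below, with a median log2 fold change of 0.09, against 0.01 for all genes tested.

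**Figure D2:**
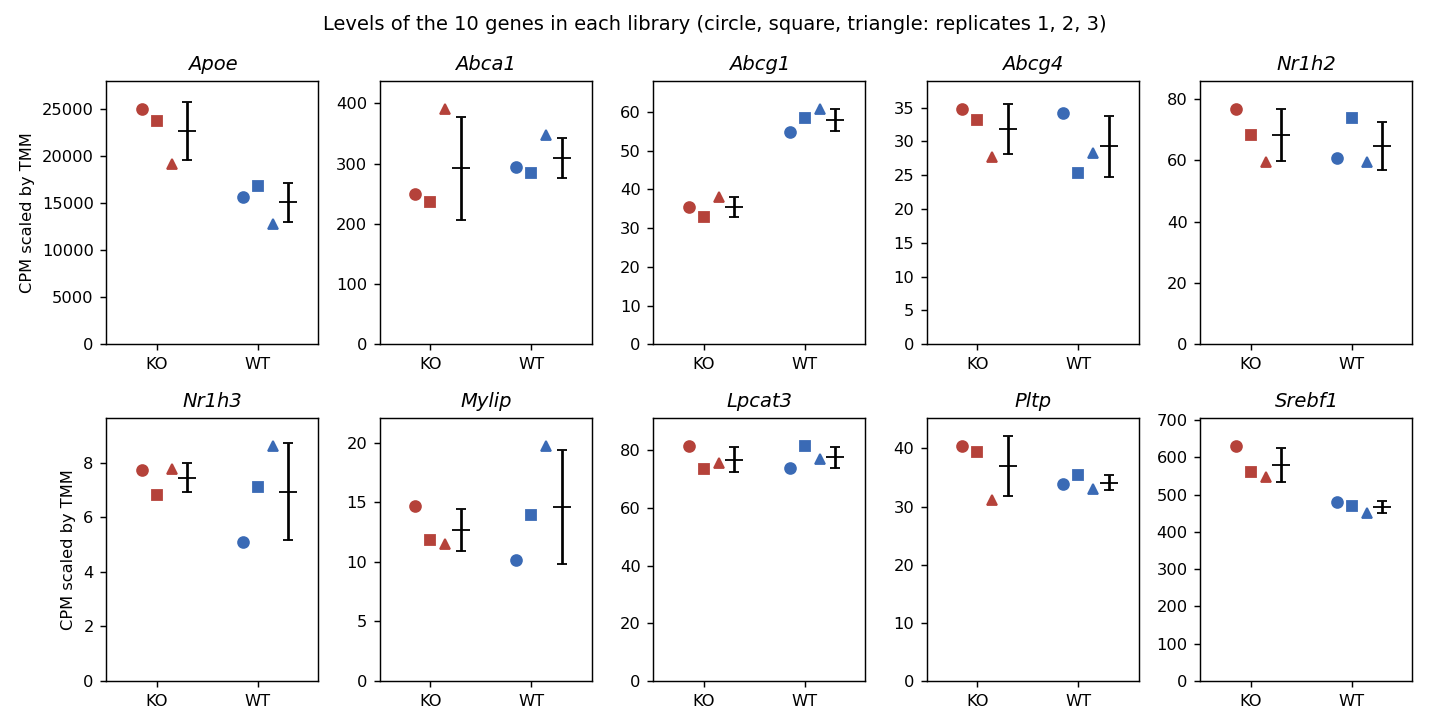
Level of each of the 10 genes in CPM scaled by TMM, with KO in red left of WT in blue. Points are libraries, and the black bar beside each group is its mean ± SD (n = 3). Apoe and Srebf1 are higher and Abcg1 is lower in all 3 KO libraries than in any WT library, and the other 7 genes overlap.

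**Figure D3:**
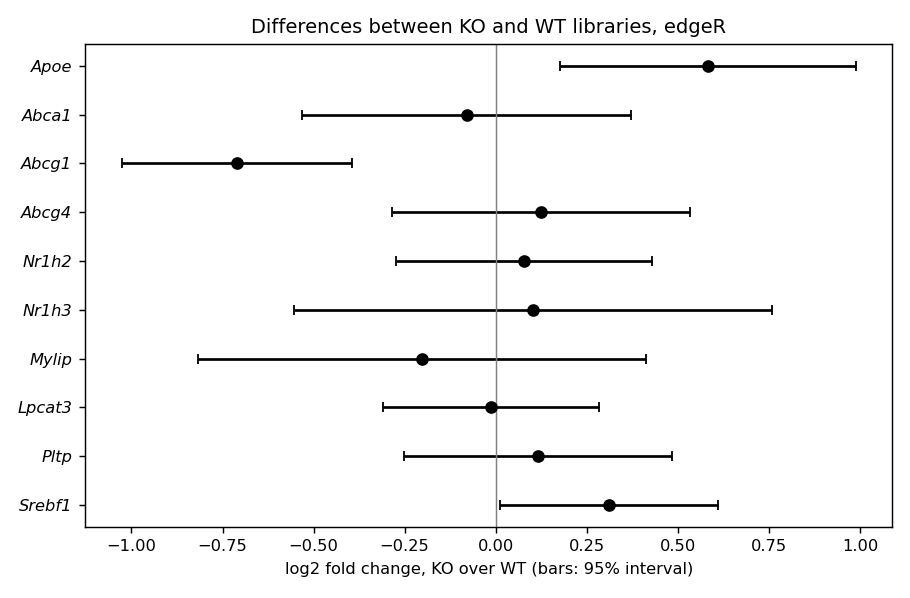
Log2 fold change of each gene, KO over WT, with its 95% interval from edgeR. The intervals of Apoe (0.18 to 0.99), Srebf1 (0.01 to 0.61) and Abcg1 (-1.03 to -0.39) lie to 1 side of 0 before adjustment for the number of genes tested, and the other 7 include 0.

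Apoe encodes the main lipid-carrying apolipoprotein of the brain, which astrocytes secrete. Its position is chromosome 7, 19696109 to 19699188 (GRCm38, minus strand; all positions below are on this build), and its exons overlap no other gene. It held 24979, 23769 and 19128 CPM in the KO libraries, against 15662, 16857 and 12817 CPM in the WT libraries. Each KO library was above each WT library, and replicate 3 was the lowest of both groups. As a share of all counts Apoe took 2.35%, 2.31% and 1.93% in KO and 1.58%, 1.69% and 1.36% in WT. The means were 22625 ± 3089 CPM in KO and 15112 ± 2075 CPM in WT (SD, n = 3 each). The log2 fold change was 0.58 ± 0.18 (SE), a 1.50-fold higher level with a 95% interval of 1.13 to 1.98, and the edgeR adjusted p was 0.628. The unadjusted p was 0.00962, and it was 0.0522 without WT replicate 3, with a log2 fold change of 0.48.

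Astrocyte markers are given beside Apoe. In bulk libraries a larger share of cells of a type and more RNA per cell cannot be told apart. Of the 10 astrocyte markers, 9 had a fold change above 0, with a median log2 fold change of 0.22 and none called. The genes Gfap and S100b, 2 of the 10, had KO above WT in all libraries, where 5.28% of all genes tested showed this, and the other 8 overlapped. Gfap, an astrocyte filament gene, averaged 1082 ± 457 CPM in KO and 612 ± 36.7 CPM in WT (log2 fold change 0.82 ± 0.26, adjusted p = 0.650), and S100b, a calcium-binding protein gene, averaged 445 ± 47.5 CPM in KO and 328 ± 47.5 CPM in WT (0.44 ± 0.16, adjusted p = 0.717). Set against their summed level in the same library, Apoe amounted to 57.3%, 61.7% and 52.9% in KO, against 41.4%, 48.3% and 38.8% in WT. Of this sum Glul, Slc1a2, Aldoc and Slc1a3 made up 84.7% to 87.2%. The groups did not overlap on this scale, and the KO minus WT difference of the mean log2 ratio was 0.42 (exact permutation test, two-sided p = 0.1, the smallest that 3 against 3 libraries allow). Against Gfap alone the groups overlapped, with Apoe at 15.6, 25.7 and 26.4 times Gfap in KO and 23.9, 28.4 and 21.8 times in WT. Against S100b alone they also overlapped, at 49.0 to 52.3 times in KO and 44.4 to 49.1 times in WT. Gfap and S100b, chosen after the data were seen, were themselves higher in each KO library than in any WT library. Dividing by either lowers KO relative to WT for any gene, so no conclusion is drawn from these overlaps. No ratio to any of the other 8 markers alone was computed. Among the GC-high libraries KO minus WT came to 0.53 for Apoe on the log2 CPM scale (2 KO, 1 WT), and among the others to 0.43 (1 KO, 2 WT), with a single library in 1 arm of each.

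Abcg1 had the smallest p of the group. It encodes an exporter that passes sterol to lipoprotein particles that already carry lipid, and it is a well-known LXR target. The gene lies on chromosome 17 at 31057675 to 31117988 (plus strand), with no overlapping exons. It held 35.3, 32.9 and 38.1 CPM in the KO libraries, against 54.9, 58.4 and 60.7 CPM in the WT libraries. Both groups were tight and apart from each other. The means were 35.4 ± 2.60 CPM in KO and 58.0 ± 2.92 CPM in WT (SD, n = 3 each). Its log2 fold change was -0.71 ± 0.14 (SE), so that KO held 0.611 of the WT level with a 95% interval of 0.491 to 0.761. The edgeR adjusted p was 0.288, and 26 was its place among all genes tested in order of p. It passed the threshold in 3 of the 16 other settings and not in the rest. With DESeq2 the adjusted p was 0.00933. With the GC-high libraries against the others as a batch term in edgeR it was 0.0318, and this fit called 0.623% of all genes. That term was read from the same expression values. With a block for replicate number and the GC and length trend removed in edgeR it was 0.0266, and this fit called 114 of all genes. Over all 16 other settings its adjusted p ran from 0.00933 to 1.

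Markers of other glia are given beside Abcg1. The 7 genes listed as precursor markers were Pdgfra, Cspg4, Gpr17, Lhfpl3, Olig1, Olig2 and Sox10. Whether their reads came from precursors only, or also from mature oligodendrocytes, was not tested. All 7 had a fold change below 0, with a median log2 fold change of -0.59. KO was below WT in all libraries for 6 of them, as for 5.87% of all genes tested. Of the microglia and macrophage markers 12 of 14 were below 0 (median -0.23) and 4 had KO below WT in all libraries. Of the mature oligodendrocyte markers 10 of 12 were below 0 (median -0.98) and 9 had KO below WT in all libraries. None of these markers was called. Set against the summed precursor markers of the same library, Abcg1 amounted to 2.07%, 2.39% and 2.07% in KO, against 2.17%, 2.61% and 2.21% in WT. On this scale the groups overlapped, and the difference of the mean log2 ratio was -0.10 (exact permutation test, two-sided p = 0.5). The precursor sum, chosen after the data were seen, was itself lower in each KO library than in any WT library. Dividing by it raises KO relative to WT for any gene, so this overlap does not show where Abcg1 was expressed. No ratio to the mature oligodendrocyte markers was computed. Against the microglia and macrophage markers it amounted to 2.19%, 2.23% and 2.93% in KO and 3.61%, 2.78% and 2.80% in WT, also with overlap (-0.33, exact permutation p = 0.3). Against the astrocyte markers the groups did not overlap, at 0.0811%, 0.0854% and 0.105% in KO and 0.145%, 0.167% and 0.184% in WT (-0.87, exact permutation p = 0.1, the smallest possible). The astrocyte sum itself ran higher in KO, at 36133 to 43564 CPM against 32999 to 37842 CPM in WT, with overlap. This ratio is therefore further from 0 than the log2 fold change of -0.71 for Abcg1 itself. Over the 5 such ratios computed, the adjusted p ran from 0.167 to 0.5. Which cells the reads of Abcg1 came from was not tested.

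**Figure D4:**
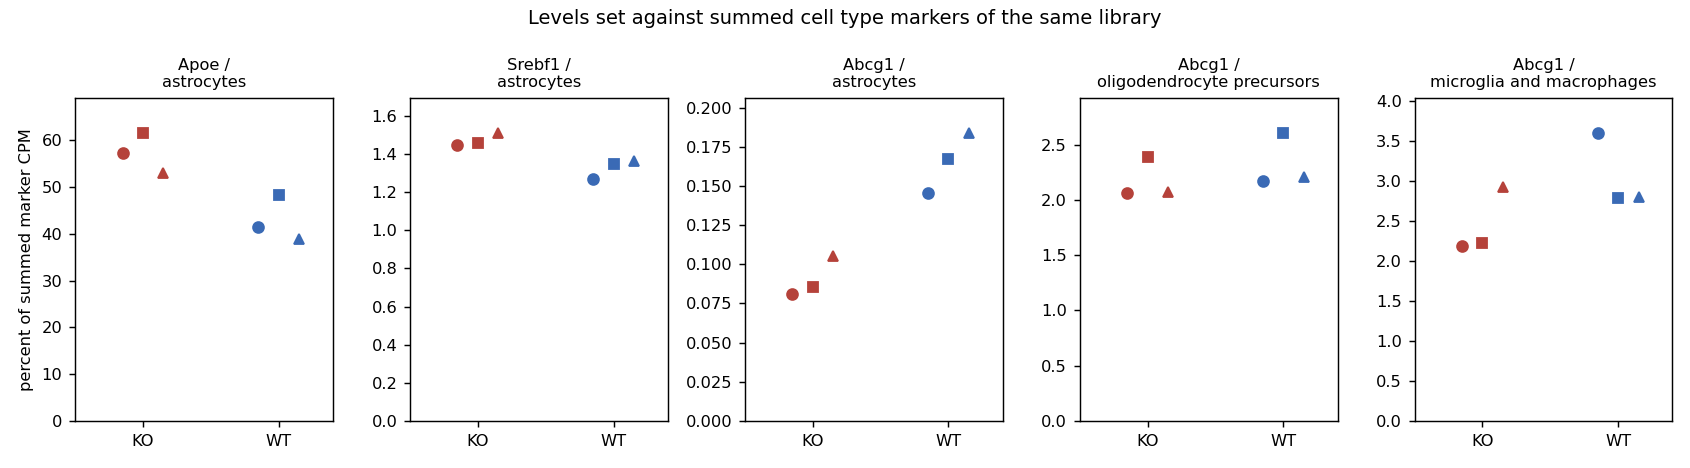
Level of Apoe, Srebf1 and Abcg1 in each library as a percent of the summed CPM of the markers of a cell type, KO in red left of WT in blue. Apoe and Srebf1 stay higher and Abcg1 stays lower in KO against astrocyte markers, while Abcg1 overlaps between the groups against precursor markers (2.07% to 2.39% in KO, 2.17% to 2.61% in WT). The precursor sum is itself lower in each KO library than in any WT library.

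The other exporters overlapped between the groups, and whether their fold changes differ from that of Abcg1 was not tested. Abca1 encodes the exporter that loads cholesterol and phospholipid onto lipid-poor apolipoproteins, apolipoprotein E among them, and lies on chromosome 4 at 53030787 to 53159895 (minus strand). It held 249, 236 and 390 CPM in the KO libraries, against 294, 285 and 347 CPM in the WT libraries. KO replicates 1 and 2 were below all WT libraries and KO replicate 3 was the highest of the 6. On the log2 scale the fold change was -0.08 ± 0.20 (SE), with a 95% interval of -0.53 to 0.37 (edgeR adjusted p = 0.935). Without KO replicate 3 it was -0.35, with an unadjusted p of 0.0377 and an edgeR adjusted p of 0.250. Among the GC-high libraries KO minus WT came to -0.23 for Abca1 on the log2 CPM scale (2 KO, 1 WT), and among the others to 0.29 (1 KO, 2 WT).

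Abcg4 encodes a close relative of Abcg1 that also moves sterols and is found mainly in the nervous system. It lies on chromosome 9 at 44273188 to 44288615 (minus strand). It held 34.8, 33.2 and 27.7 CPM in the KO libraries, against 34.2, 25.4 and 28.3 CPM in the WT libraries, with overlap. Its log2 fold change was 0.12 ± 0.18 (SE; 95% interval -0.29 to 0.53, edgeR adjusted p = 0.884). As a ratio of CPM per kb, Abcg1 stood at 0.726, 0.708 and 0.983 times Abcg4 in the KO libraries, against 1.15, 1.64 and 1.54 times in the WT libraries. The ratio was lower in each KO library than in any WT library. Which gene of the pair is above the other rests on the exonic lengths used, and in KO replicate 3 the ratio was close to 1.

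The receptor genes overlapped between the groups. Nr1h2 encodes LXR beta, which is expressed widely, and lies on chromosome 7 at 44549616 to 44553951 (minus strand). It held 76.7, 68.4 and 59.6 CPM in the KO libraries, against 60.8, 73.7 and 59.4 CPM in the WT libraries, with KO replicate 1 and WT replicate 2 the highest. The log2 fold change was 0.08 ± 0.16 (SE; 95% interval -0.27 to 0.43, edgeR adjusted p = 0.915). Nr1h3 encodes LXR alpha, best known from liver, fat and macrophages, and lies on chromosome 2 at 91184061 to 91202834 (minus strand). It held 7.75, 6.84 and 7.78 CPM in the KO libraries, against 5.08, 7.12 and 8.62 CPM in the WT libraries. With 93 to 173 counts per library it was the most thinly counted gene of the group, and its WT libraries held both the highest and the lowest value. Its log2 fold change was 0.10 ± 0.29 (SE; 95% interval -0.56 to 0.76, edgeR adjusted p = 0.944). In CPM per kb, Nr1h2 stood 5.17 to 8.97 times above Nr1h3 over the 6 libraries.

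Of the genes grouped here as targets (Srebf1, Mylip, Lpcat3 and Pltp), only Srebf1 had libraries that did not overlap. The exporter gene Abcg1, also an LXR target, did not overlap either, with KO below WT. Srebf1 encodes sterol regulatory element-binding protein 1, whose 1c form drives fatty acid synthesis and is switched on by LXRs. The gene lies on chromosome 11 at 60199089 to 60222581 (minus strand). It held 631, 561 and 547 CPM in the KO libraries, against 481, 470 and 450 CPM in the WT libraries. All KO libraries were above all WT libraries, and KO replicate 1 was the highest. The means were 580 ± 44.9 CPM in KO and 467 ± 15.6 CPM in WT (SD, n = 3 each). The log2 fold change was 0.31 ± 0.13 (SE), a fold of 1.24 with a 95% interval of 1.01 to 1.53, and the edgeR adjusted p was 0.793. The unadjusted p was 0.0432. It was above 0.05 when any library other than KO replicate 3 was left out, at 0.0760 to 0.138, with total counts (0.0666), with no low-count filter (0.0518) and with the GC and length trend removed (0.0599). Against the summed astrocyte markers of the same library it amounted to 1.45%, 1.46% and 1.51% in KO and 1.27%, 1.35% and 1.36% in WT, a difference of the mean log2 ratio of 0.15 (exact permutation p = 0.1). Gene totals do not separate the transcripts that start at different promoters, and 3.11% of the exonic length overlaps Rai1 or Mir6922.

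The remaining genes of that grouping, Mylip, Lpcat3 and Pltp, overlapped between the groups. Mylip encodes the ubiquitin ligase also called IDOL, which marks receptors of the LDL receptor family for breakdown. It held 14.7, 11.9 and 11.5 CPM in the KO libraries, against 10.2, 13.9 and 19.7 CPM in the WT libraries, and its WT libraries were the more spread. The log2 fold change was -0.20 ± 0.28 (SE; edgeR adjusted p = 0.875), and without WT replicate 3 it was 0.08. Lpcat3 encodes an enzyme that puts polyunsaturated fatty acids into membrane phospholipids. It held 81.5, 73.4 and 75.4 CPM in the KO libraries, against 74.0, 81.5 and 77.1 CPM in the WT libraries. Its values were the tightest of the group, with a log2 fold change of -0.01 ± 0.13 (SE) and a 95% interval of -0.31 to 0.28 (edgeR adjusted p = 0.987). Its range over the 6 libraries was 0.15 on the log2 CPM scale, against a median of 0.775 over all genes tested.

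Pltp encodes phospholipid transfer protein, which moves phospholipid between lipoprotein particles. It held 40.4, 39.5 and 31.1 CPM in the KO libraries, against 33.9, 35.5 and 32.9 CPM in the WT libraries, so the KO libraries lay on both sides of the WT range. The log2 fold change was 0.12 ± 0.16 (SE; 95% interval -0.25 to 0.48, edgeR adjusted p = 0.879). Exons of Lpcat3 and Pltp overlap Emg1 and Ctsa on the opposite strand over 10.2% and 19.3% of their exonic length, and no source used here says whether the counting used strand, so both values are uncertain. The overlap of Nr1h3 with Gm13783 on the same strand covers 1.35% of its exonic length. Mylip (chromosome 13, 45389742 to 45412022, plus strand) had no such overlap. Lpcat3 lies on chromosome 6 at 124663027 to 124704418 (plus strand) and Pltp on chromosome 2 at 164839518 to 164857711 (minus strand).

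Upstream sequences are shown for the targets in which a published form of the LXR element was found, and for Apoe as the gene with the highest level. RefSeq starts (GRCm38.p6) gave 13 windows of 250 bases for 8 of the 10 genes, and Abcg1 and Abcg4 were not searched. Sequence outside these windows, such as distant or downstream elements, was not searched either. A window without a match, as in Apoe, does not show that the gene lacks such an element. A direct repeat of the letters AGGTCA with 4 bases between the copies, searched on both strands with up to 2 mismatches, was in 0 of the 13 windows and in 2.57% of all 32851 windows. The sterol regulatory element TCACNCCAC, searched on both strands with no mismatch, was in 0 of the 13 and in 1.05% of all windows. The letters GGTTACT, then any 2 bases, then CGGTCA, searched on both strands with no mismatch, were taken from known LXR elements of Abca1 and Srebf1 after the windows had been read, so their presence in these genes was fixed by the choice. Of all windows 3 held them (0.0091%), those of Abca1, of an internal start of Srebf1 and of the fatty acid synthase gene Fasn. Taken with the base beside it, each match also reads as a direct repeat, GGGTTA, then 4 bases, then CGGTCA. That reading has more mismatches to AGGTCA than the 2 allowed above, so the 0 of the 13 windows depends on that limit. Capitals mark the match, which lies on the strand opposite to the gene in each. The windows end at the base before the start and are at chr4:53159896-53160145 for Abca1, chr11:60210472-60210721 for Srebf1, chr11:120824548-120824797 for Fasn and chr7:19699189-19699438 for Apoe, all on the minus strand.
Abca1: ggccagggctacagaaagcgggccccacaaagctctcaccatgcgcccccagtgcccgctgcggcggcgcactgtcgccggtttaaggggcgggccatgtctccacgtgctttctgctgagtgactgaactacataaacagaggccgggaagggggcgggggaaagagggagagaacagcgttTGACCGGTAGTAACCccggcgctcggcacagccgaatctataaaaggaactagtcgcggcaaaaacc
Srebf1: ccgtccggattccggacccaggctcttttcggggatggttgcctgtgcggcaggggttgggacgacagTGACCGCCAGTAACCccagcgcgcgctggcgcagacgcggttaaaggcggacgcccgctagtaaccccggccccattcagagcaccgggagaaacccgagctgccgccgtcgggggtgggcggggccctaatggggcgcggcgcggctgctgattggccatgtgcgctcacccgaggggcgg
Fasn: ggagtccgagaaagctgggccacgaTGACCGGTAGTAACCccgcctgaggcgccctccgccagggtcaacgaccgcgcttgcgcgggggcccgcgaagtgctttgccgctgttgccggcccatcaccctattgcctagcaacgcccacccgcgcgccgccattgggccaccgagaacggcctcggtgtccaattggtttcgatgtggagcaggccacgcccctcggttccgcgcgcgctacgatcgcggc
Apoe: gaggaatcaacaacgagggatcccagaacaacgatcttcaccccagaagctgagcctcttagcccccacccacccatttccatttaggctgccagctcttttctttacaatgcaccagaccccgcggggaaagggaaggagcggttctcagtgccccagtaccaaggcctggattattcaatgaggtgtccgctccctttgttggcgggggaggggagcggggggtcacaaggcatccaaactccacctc

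The match lay 53 to 67 bases upstream of the start in Abca1, 168 to 182 in Srebf1 and 211 to 225 in Fasn. Abca1 and Fasn share all 15 bases of it. Fasn stood at 753, 828 and 756 CPM in the KO libraries, against 729, 622 and 701 CPM in the WT libraries (log2 fold change 0.19 ± 0.14, SE, edgeR adjusted p = 0.833). Its KO libraries were all above its WT libraries, as in 5.28% of all genes tested. The 3 genes that share these letters had log2 fold changes of -0.08, 0.31 and 0.19 for Abca1, Srebf1 and Fasn, and none passed the threshold.

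Other genes of the pathway were read in 8 lists, and none of their tested members passed the threshold in edgeR. Of 13 further LXR targets, 8 had a fold change above 0 and 5 below, with a median log2 fold change of 0.18. The values of 5 of them were higher in all KO libraries than in any WT library, where 5.28% of all genes tested showed this, and 2 had an unadjusted p under 0.05 with higher values in KO, as had 2.34% of all genes. Those 2 were the fatty acid desaturase genes Fads2 and Fads1. Fads2 averaged 576 ± 19.2 CPM in KO and 450 ± 34.4 CPM in WT (log2 fold change 0.36 ± 0.13, adjusted p = 0.779), and Fads1 780 ± 70.1 CPM in KO and 608 ± 48.2 CPM in WT (0.36 ± 0.14, adjusted p = 0.793).

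Of 11 LXR partners and co-regulators, 4 were above 0 and 7 below (median -0.09). Ncoa3, a nuclear receptor coactivator gene, averaged 39.5 ± 7.16 CPM in KO and 56.1 ± 3.79 CPM in WT (log2 fold change -0.51 ± 0.17, adjusted p = 0.659), and 1.95% of its exonic length overlaps Sulf2. Rxrg, a retinoid X receptor gene, was low, at 4.67 ± 0.773 CPM in KO and 2.98 ± 0.552 CPM in WT (0.64 ± 0.37, adjusted p = 0.826). Neither gene overlapped between the groups, as was the case for 11.2% of all genes tested.

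Of 15 other ABCA and ABCG transporters 11 were tested, 5 above 0 and 6 below (median -0.24), and 3 of those below had an unadjusted p under 0.05, as did 3.83% of all genes tested. Abcg2, a drug and sterol transporter gene typical of brain vessels, averaged 4.67 ± 1.41 CPM in KO and 9.48 ± 1.65 CPM in WT (log2 fold change -1.02 ± 0.32, adjusted p = 0.628). The summed vascular and fibroblast markers were higher in each KO library than in any WT library, but Cldn5 held 32.7 and 64.4 CPM of that sum in KO replicates 2 and 3. Of the 7 such markers tested, 5 had a fold change above 0 and 2 below. Rgs5, 1 of those below, was lower in each KO library than in any WT library (log2 fold change -0.87). Which cells the reads of Abcg2 came from was not tested. Abca2, a transporter gene prominent in oligodendrocytes, averaged 352 ± 51.2 CPM in KO and 477 ± 87.8 CPM in WT (-0.44 ± 0.18, adjusted p = 0.793). Abca2 lay beside mature oligodendrocyte markers with a median of -0.98, whose part in its value was not tested. The genes Abcg5 and Abcg8 had 0 counts in all libraries.

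Apolipoprotein and lipoprotein-remodelling genes other than Apoe numbered 12, of which 8 were tested, 6 above 0 and 2 below (median 0.28). Lcat, which esterifies cholesterol on particles, averaged 239 ± 32.2 CPM in KO and 192 ± 22.3 CPM in WT (0.32 ± 0.15, adjusted p = 0.819). Clu, also called apolipoprotein J, averaged 6415 ± 1518 CPM in KO and 5385 ± 150 CPM in WT (0.25 ± 0.19, adjusted p = 0.833). Its KO libraries spread from 5144 to 8096 CPM and overlapped the WT range.

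Receptor genes for lipoproteins split evenly, with 5 of 10 tested above 0 and 5 below (median 0.05). Vldlr, a receptor gene for apolipoprotein E particles, averaged 34.8 ± 12.5 CPM in KO and 52.8 ± 16.6 CPM in WT (-0.60 ± 0.30, adjusted p = 0.819), and Lrpap1, a chaperone gene of these receptors, 255 ± 21.9 CPM in KO and 224 ± 28.1 CPM in WT (0.19 ± 0.15, adjusted p = 0.834). Intracellular sterol transport and esterification genes were 8 above and 4 below 0 of 12 tested (median 0.05). Npc2, which hands cholesterol out of lysosomes, averaged 341 ± 35.0 CPM in KO and 269 ± 51.0 CPM in WT (0.34 ± 0.17, adjusted p = 0.819), and Tspo 14.4 ± 5.92 CPM in KO and 8.97 ± 3.65 CPM in WT (0.68 ± 0.38, adjusted p = 0.825). Tspo overlaps Mcat on the opposite strand over 5.04% of its exonic length.

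Enzymes that make or consume LXR ligands were 5 above and 1 below 0 of 6 tested (median 0.13). Cyp27a1, which makes an oxysterol, averaged 7.87 ± 3.07 CPM in KO and 13.9 ± 4.12 CPM in WT (-0.82 ± 0.35, adjusted p = 0.793). Its KO libraries were all below its WT libraries, as in 5.87% of all genes tested. Cyp46a1, which makes the oxysterol that leaves the brain, averaged 84.7 ± 15.3 CPM in KO and 69.3 ± 11.1 CPM in WT (0.29 ± 0.18, adjusted p = 0.826). Of 6 SREBP processing genes 5 were above 0 and 1 below (median 0.08). Srebf2, the main activator of cholesterol synthesis genes, averaged 329 ± 36.1 CPM in KO and 279 ± 22.4 CPM in WT (0.24 ± 0.14, adjusted p = 0.826). Mbtps2, a protease gene of SREBP maturation, averaged 13.7 ± 6.48 CPM in KO and 18.9 ± 3.21 CPM in WT (-0.47 ± 0.33, adjusted p = 0.833), and shares 28.4% of its exonic length with Yy2 on the same strand.

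The genes whose values over the 6 libraries were most like those of Apoe were Tox, Pdzph1 and Vwa1. Likeness was the root mean square difference of log2 CPM centred on each gene's mean, among 9655 named genes of at least 10 CPM, and it was 0.0450, 0.0596 and 0.0673. For Abca1 they were Plxna4, Scfd1 and Cttnbp2nl, at 0.0430, 0.0434 and 0.0497. With 6 libraries these are descriptions of a pattern.

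Across settings, 5 of the 10 genes held the sign of their fold change in all 16 alternatives: Apoe, Abcg1, Abcg4, Pltp and Srebf1. Apoe ran from 0.45 with the GC and length trend removed to 0.69 without KO replicate 3, and Abcg1 from -0.78 with total counts to -0.66 without KO replicate 2. Srebf1 ran from 0.24 to 0.35. For Abca1, Nr1h2, Nr1h3, Mylip and Lpcat3 the sign changed in at least 1 setting.

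**Figure D5:**
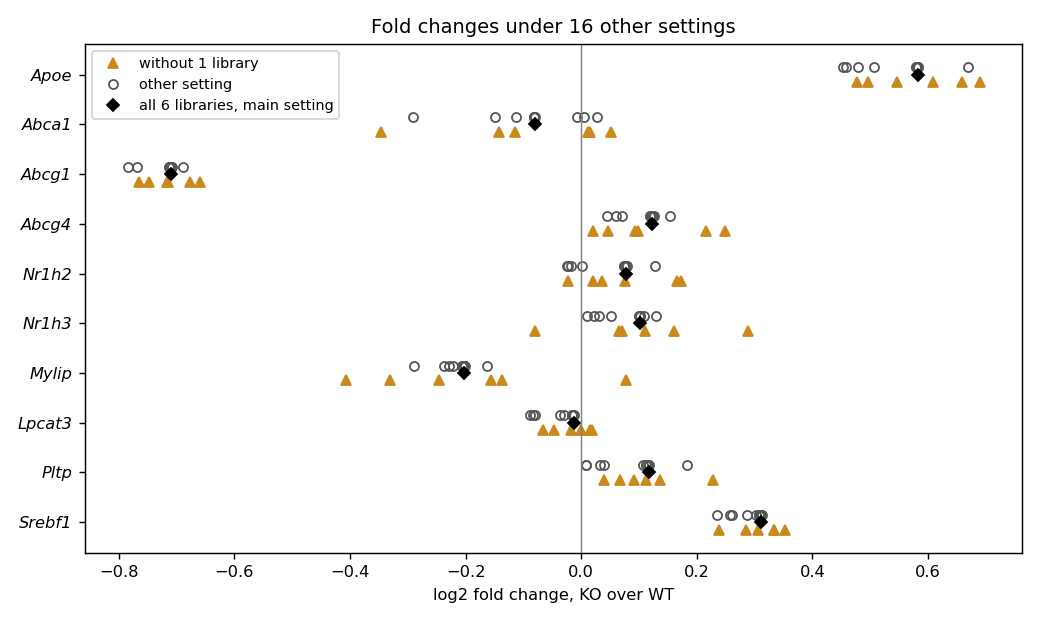
Log2 fold change of each gene, KO over WT, with all 6 libraries in the main setting (diamond), without 1 library (triangles) and in the other 10 settings (open circles). Apoe, Abcg1, Abcg4, Pltp and Srebf1 stay on 1 side of 0, and Abca1, Nr1h2, Nr1h3, Mylip and Lpcat3 cross it.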

How the data were processed

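The authors deposited estimated counts per gene symbol, not normalized. The submitters' processing notes name TopHat2, featureCounts, GRCm38 and mm9, with neither version nor role. Annotation, strand setting and treatment of multi-mapping reads: not given in the sources used here. In each library 0.711% to 0.847% of the deposited values were not whole (tolerance 0.01), and all were rounded. Coordinates and exonic length are from GENCODE M21 (GRCm38), which 98.5% of symbols matched. KO was compared with WT over all genes by the quasi-likelihood test of edgeR 4.0.16 (R 4.3.3), with TMM, filterByExpr and Benjamini-Hochberg adjustment. The test was tried on simulated data, the outcome of which is not reported here, and no value above rests on it. No replicate pair agreed within sampling noise (chi-square per degree of freedom at least 22.3). Alternatives used DESeq2 1.42.0, limma 3.58.1, other scalings, filters and covariates, and left out each library. The ratios to markers were chosen after seeing the data. Named genes of a list are the 2 of smallest p where fewer than 2 were called, and Fasn, Mbp and the genes at 0 counts were named after their values were seen. The group, the lists and the tests were chosen with earlier results of these data known. Reads per gene limit precision most for Nr1h3.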

Additional observations from a re-analysis of the deposited data

How the results depend on the processing

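Of the 10 genes, 0 were called in edgeR. Abcg1 was the 1 gene called with DESeq2, with a batch term for the GC trend and with the replicate block plus the GC and length trend removed (adjusted p = 0.0266, and 0.0867 with the block alone), and 0 were called in each fit without 1 library. At an unadjusted p under 0.05 there were 3. Over all genes, 0 were called in edgeR, 6 with no low-count filter, 76 with DESeq2, 4 with limma voom, 44 with the replicate block, 114 with the block and the GC and length trend removed, 15 with that trend removed alone, 88 with the batch term, and 0 to 31 without 1 library, the highest without KO replicate 3. RLE, total counts, a filter of 1 CPM and a fold of at least 2 gave 0. The sign changed for Abca1 with the trend removed (0.0044), the batch term (0.027), and without KO replicate 1 (0.014), KO replicate 2 (0.0515) or WT replicate 3 (0.012), and ran from -0.35 to 0.0515 without 1 library. It changed for Nr1h2 with the trend removed (-0.0239), also with the block (-0.0231), the batch term (-0.0175) and without KO replicate 1 (-0.0233), and ran from -0.0233 to 0.173 without 1 library. It changed for Nr1h3 without WT replicate 1 (-0.079, range without 1 library -0.079 to 0.289), for Mylip without WT replicate 3 (0.077, range -0.407 to 0.077) and for Lpcat3 without KO replicate 2 (0.0182) or WT replicate 2 (0.0145, range -0.067 to 0.0182). The cause was not tested. Same-numbered KO and WT libraries deviated together with r of 0.0873, 0.150 and 0.284, too little in 1 pair to take the numbers as pairs, although each library correlated best with its own number.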
